A study of Homo sapiens with 4 samples.

Results

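DNA methylation was compared between 2 libraries made by whole-genome bisulfite sequencing of the human line HUDEP-2. These are immortalised red cell precursors whose haemoglobin is mainly of the adult type. In this method unmethylated cytosines are converted and read as T, so the share of reads with C at a CpG is its methylation level. The first library came from untreated, non-differentiated cells, kept in expansion medium for 3 to 4 days. This medium held stem cell factor at 50 ng/ml, dexamethasone at 0.4 µg/ml, erythropoietin at 3 IU/ml and doxycycline at 1 µg/ml. The other library came from differentiated cells that received only the vehicle DMSO, at 0.1% and from expansion onward. Differentiation had a growth stage of 4 days, with stem cell factor at 100 ng/ml, and a maturation stage of 2 days without it. Dexamethasone was listed for expansion medium only, while doxycycline and erythropoietin were listed for every stage. The series held 2 further differentiated libraries, with a DNMT1 inhibitor and with an EED inhibitor. Their levels appear beside the comparison where they help to read a region, and neither entered it. The members were the CpGs of chromosomes 1 to 22 listed for both libraries, 23279818 of the 24462605 listed for either (95.2%).

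Each side of the comparison is 1 library from 1 cell line, so no spread between cultures was measured and the values describe these libraries. Differentiation, the change of medium and DMSO came together and cannot be told apart. A listed CpG had a mean coverage of 27.6 reads without differentiation and of 28.4 reads with DMSO. Over the same CpGs the library with the DNMT1 inhibitor had a level of 16.8%, far below all others, and that with the EED inhibitor 59.3%. On pooled reads, promoters of erythroid markers had little methylation at HBA1 (1.35% non-differentiated and 1.5% DMSO), KLF1 (1.55% and 2.12%) and EPB42 (3.99% and 4.31%). The promoter of SLC4A1, which encodes the band 3 anion exchanger, was methylated at 84.6% and 78.7%. Of the markers of other blood lineages, the B cell gene PAX5 stood at 6.36% and 5.06%, also a low level, so promoter levels alone do not separate the lineages.

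In the erythroid lineage, methylation is copied to new strands by DNMT1 with its partner UHRF1, set anew by DNMT3A and DNMT3B, and oxidised by TET enzymes. Erythroid precursors divide a limited number of times while they mature, and genome-wide loss of methylation is a known feature of that process in mouse and human. Long late-replicating stretches of many cultured cells lose methylation over divisions and are called partially methylated domains. Within them the CpGs that lose it first lie alone between A or T bases. Active gene bodies usually carry high methylation, and active promoters in CpG islands usually carry none.

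Sequences of 3 short regions where the DMSO library was lower are shown first, from hg38 on the plus strand. None lies in a promoter or 1 kb window that passed a test in which CpGs on 1 fragment count together. The ends of each stretch were set by the CpGs that differed most, so that all its CpGs were lower is part of the choice. Capitals mark the CpGs listed in both libraries. The stretch at chr11:64247699-64247927 lies in the distal promoter of PPP1R14B, a protein phosphatase inhibitor gene, and inside its antisense RNA gene PPP1R14B-AS1. The stretch at chr16:52766524-52766676 is intergenic, with TOX3 as the nearest protein-coding gene. The stretch at chr17:51498363-51498593 is in intron 4 of LINC02073.
PPP1R14B promoter: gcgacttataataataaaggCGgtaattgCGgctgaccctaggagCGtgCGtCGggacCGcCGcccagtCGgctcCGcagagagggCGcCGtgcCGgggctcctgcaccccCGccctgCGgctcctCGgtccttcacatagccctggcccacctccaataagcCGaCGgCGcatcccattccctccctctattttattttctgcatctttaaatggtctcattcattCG
window upstream of TOX3: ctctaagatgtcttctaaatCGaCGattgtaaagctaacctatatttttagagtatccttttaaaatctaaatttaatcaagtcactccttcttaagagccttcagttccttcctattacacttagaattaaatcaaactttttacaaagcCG
LINC02073 intron 4: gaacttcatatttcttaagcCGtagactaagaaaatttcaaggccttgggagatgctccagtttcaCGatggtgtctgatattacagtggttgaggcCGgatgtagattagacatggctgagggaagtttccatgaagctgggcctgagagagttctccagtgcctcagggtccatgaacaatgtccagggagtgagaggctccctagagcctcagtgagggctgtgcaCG

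Levels of the stretches are of pooled reads. In the PPP1R14B stretch all 19 CpGs were lower in the DMSO library, and the level went from 44.4% to 17%. The EED inhibitor library stood at 49.7% there, nearer the non-differentiated library. Each stretch was chosen for CpGs lower in the DMSO library, so the place of another library is partly set by that choice. In the TOX3 stretch all 3 CpGs were lower (80.2% and 41.6%), and the EED inhibitor library lay between at 65.3%. In the LINC02073 stretch all 4 were lower (62.1% and 34.3%), with the EED inhibitor library again between, at 49.1%.

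Across the genome the DMSO library was less methylated than the non-differentiated library. Pooling all reads, the levels were 61.7% without differentiation and 60.3% with DMSO, a difference of -1.42 percentage points. Part of this followed coverage. DMSO reads were relatively more frequent at CpGs that carry no methylation, with a coverage ratio of 1.05 where the EED inhibitor library was at 0% and 1.00 where it was at 100%. Each CpG was therefore also given the same weight in both libraries, by a Mantel-Haenszel estimate with each CpG as a stratum, called matched by CpG below. The matched levels were 61.5% and 60.5%, a difference of -0.989 points, which is 98.4% of the non-differentiated level. All differences below are DMSO minus non-differentiated in points and matched by CpG unless pooled reads are named. The same holds for the levels of the compared libraries. Levels of the inhibitor libraries over a region are of pooled reads throughout. Where an inhibitor level is called nearer to or between matched levels, the measures are therefore unlike. Every one of the 22 autosomes was lower, from -0.872 points on chromosome 22 to -1.08 points on chromosome 9. CpGs at exactly 100% made up 11% of the shared CpGs without differentiation and 8.41% with DMSO, while CpGs at exactly 0% made up 10.3% and 10.1%.

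The size of the difference depended on how methylated a CpG was. CpGs were sorted by their level in the EED inhibitor library, which is not on either side of the comparison. Those at 80 to 90% there had levels of 88.3% and 86.0% in the compared libraries, a difference of -2.28 points. Those at 90% to under 100% differed by -1.53 points and those at exactly 100% by -1.04 points. Toward lower levels the difference shrank, to -0.964 points at 50 to 60% and -0.242 points at 30 to 40%. Below 30% the DMSO library was the higher, by 0.557 points at over 0 to 10% and by 0.226 points at exactly 0%, where the levels were 1.97% and 2.20%. This order holds for single CpGs sorted in this way. Whole regions of low level were not higher: CpG islands under 10% in the EED inhibitor library differed by -0.115 points. Unconverted cytosine would also appear as methylation at CpGs near 0%; the conversion rate was not measured here and its part was not tested.

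**Figure D1:**
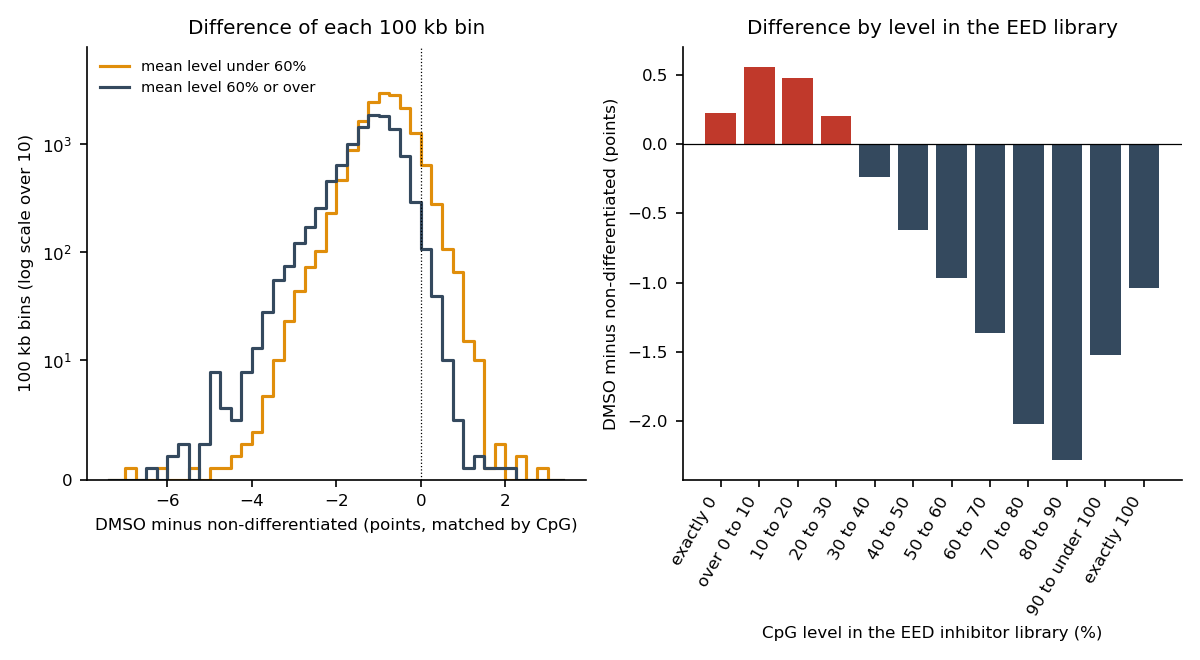
Left, number of 100 kb bins (vertical, log scale over 10) by their matched difference in points (horizontal), for bins with a mean level under 60% and of 60% or over; the bulk of both lies below 0 and the lower tail is longer. Right, matched difference in points for CpGs grouped by their level in the EED inhibitor library; bars run from 0.557 points at over 0 to 10% down to -2.28 points at 80 to 90%.

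The lower level was spread over domains of both kinds. Bins of 100 kb with at least 100 shared CpGs numbered 27025, of which 16383 (60.6%) had a mean level under 60%, the class of partially methylated domains. These had matched levels of 47.2% and 46.3%, a difference of -0.838 points. The 10642 highly methylated bins had 76.3% and 75.1%, a difference of -1.15 points. As a share of the non-differentiated level, the DMSO level was 98.2% in partially methylated bins and 98.5% in highly methylated bins. By 100 kb bins, 95.2% were lower, with a median of -0.928 points and the middle 90% of bins between -2.12 and -0.0128 points. On pooled reads the share of windows that were lower grew with their length, from 59.5% of 1 kb windows to 67.9% of 5 kb windows, 92.2% of 100 kb bins and 99.7% of 1 Mb bins. Their mean difference changed little, from -0.966 points at 1 kb to -1.17 points at 1 Mb. The spread from counting, with every read counted, fell from 4.44 to 0.154 points. A steady difference with less counting error already gives a growing share.

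The order of the sequence contexts depended on the kind of bin. In partially methylated bins CpGs that lie alone between A or T bases, those most prone to loss in dividing cells, stood at 19.7% and 19.5%, a difference of -0.208 points. In the same bins CpGs between C or G bases with 3 or more others within 35 bp differed by -1.18 points. As a share of the non-differentiated level, the DMSO level was 98.95% for the former and 98.3% for the latter. In highly methylated bins the order was turned, with -1.42 points for lone CpGs between A or T bases (62.6% and 61.2%) and -0.597 points for clustered CpGs between C or G bases. Introns differed by -1.06 points, exons by -1.0 points, intergenic CpGs by -0.955 points and promoters by -0.518 points. As a share of the non-differentiated level, the DMSO level was 98.5%, 98.7%, 98.3% and 98.1% in that order. CpG islands differed by -0.710 points. In points the 8014 islands under 10% in the EED inhibitor library differed by far less than the 11429 at 50 to 90%, which were at -1.03 points. As a share the order was turned, with the DMSO level at 96.4% of the non-differentiated level in the former and 98.6% in the latter.

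Some domains lost far more than the rest. On pooled reads 19 bins were lower by 5 points or more (0.0703% of bins) and 0 were higher by as much, and 11 of the 19 kept a difference of 5 points when matched. A Cochran-Mantel-Haenszel test with each CpG as a stratum, its statistic divided by the CpGs per 300 bp because CpGs on 1 fragment share reads, gave 4490 bins lower (16.6%) and 0 higher at a Benjamini-Hochberg adjusted p under 0.01. Of these, 1670 were lower by at least 2 points (6.18%), or 696 with fragments taken as 600 bp, and 12 of all bins were lower by at least 5 points (0.0444%). Such tests compare the reads of 2 libraries, not the conditions. The 1670 bins had a median mean level of 71.7% against 53.3% over all bins, and 72.1% of them were highly methylated against 39.4% of all. Highly methylated bins as a class differed by more points (-1.15 against -0.838). A cut in points takes such bins more easily, so this makeup is partly set by the choice. Their median cover by protein-coding genes was 63.9%, against 29.9% over all bins and 64.35% over all highly methylated bins. They made up between 3.56% of the bins of chromosome 16 and 8.78% of those of chromosome 9. Their median coverage ratio, on the log2 scale and centred on all bins, was 0.0093.

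The lower bins lay next to each other in places. They formed 1092 runs, of which 765 were single bins, 193 were pairs and 134 spanned 3 bins or more. The runs below were chosen after their values were seen, among those of at least 3 bins with the lowest matched differences. The first, at chr19:28400001-28800000, holds no protein-coding gene and 3418 shared CpGs. Its matched level fell from 53.4% to 48.4%, a difference of -4.96 points, while the EED inhibitor library stood at 54.6%. On pooled reads the 95% interval of its difference was -5.46 to -4.68 points. Intervals of pooled differences, here and below, count every read at each CpG as separate. CpGs on 1 fragment share reads, so these intervals are too narrow. The 6 neighbouring bins had a median difference of -0.973 points.

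The second run, at chr12:16400001-17000000, holds LMO3, which encodes a LIM-domain partner of transcription factors. Its level fell from 63.8% to 59.4%, a difference of -4.45 points over 3403 CpGs, and the EED inhibitor library was at 60.9%. The third, at chr5:169600001-170100000, holds SPDL1, a spindle protein gene, INSYN2B and DOCK2, which encodes a Rac activator of blood cells. It fell from 78.8% to 74.3%, a difference of -4.43 points, against a median of -0.610 points in its neighbours, and the EED inhibitor library stood at 77.9%. Within CPNE4, a copine gene, chr3:131900001-132200000 fell from 63.8% to 59.6%. In the glypican gene GPC5, chr13:91400001-91900000 fell from 71.3% to 67.2%, with the EED inhibitor library at 70.6%. In 3 of these 5 runs, on chromosomes 19, 5 and 13, the EED inhibitor library lay nearer the non-differentiated than the DMSO library. On chromosomes 12 and 3 it lay nearer the DMSO library. The runs were chosen for a low DMSO minus non-differentiated value, so the place of another library is partly set by that choice. Over all shared CpGs the EED inhibitor library was below the DMSO library on pooled reads (59.3% and 60.3%).

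The difference varied along a run, as 20 kb steps showed. The runs were chosen for bins that were lower, so these values are a description only. Inside the chromosome 19 run the steps went from -8.25 to -1.03 points, with a median of -5.77 points, while outside it 32 of 40 steps were also lower, with a median of -1.14 points. The outermost steps of that run were thus near the level of difference outside it. Inside the chromosome 5 run the steps went from -6.51 to -1.41 points, with a median of -4.65 points, and outside it 27 of 36 steps were lower, with a median of -0.731 points. Inside the runs CpGs of intermediate level differed most: on chromosome 19, CpGs at 50 to 80% in the EED inhibitor library differed by -6.89 points, those under 50% by -3.67 points and those at 80% and over by -4.88 points. The longest run had 11 bins, at chr9:28100001-29200000 in LINGO2, and fell from 71.1% to 67.8%. A run of 10 bins in FHIT, a gene across a common fragile site, at chr3:59900001-60900000, fell from 76.6% to 73.5%.

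**Figure D2:**
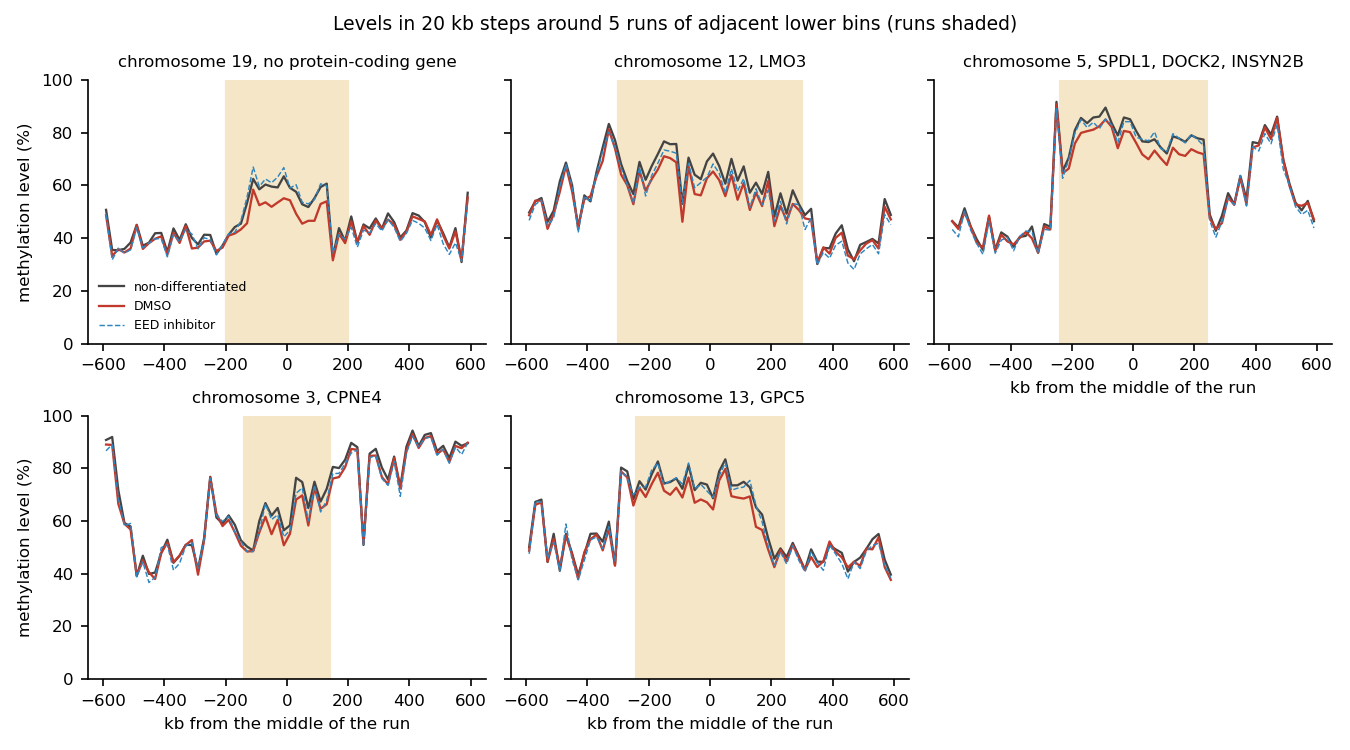
Methylation level of pooled reads (vertical, %) in 20 kb steps by distance in kb from the middle of each of the 5 runs (horizontal), for the non-differentiated, DMSO and EED inhibitor libraries, with the runs shaded. Inside the shading the DMSO line runs below the non-differentiated line, by amounts that vary from step to step; outside it the gap is smaller at the median step, though single steps are as far apart as inside.

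Gene bodies, from 1 kb after the transcript start to the end with at least 20 shared CpGs, followed the genome: of 17069 protein-coding bodies 88.0% were lower, with a median of -0.946 points. On pooled reads 166 bodies were lower by at least 5 points (0.973%) and 48 higher (0.281%); matched, these numbers were 45 and 15. The stratified test with fragments gave 1991 lower bodies (11.7%) and 1 higher (0.00586%) at an adjusted p under 0.01. With fragments taken as 600 bp these numbers were 740 and 0, so the counts of called bodies rest on the assumed fragment length of 300 bp. The share called grew with length, from 0% among the 3414 shortest bodies to 43.6% among the 3413 longest, so a missing call in a short gene says little.

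Losses of 5 points or more were rare, and 6 bodies (0.0352%) passed the test at that size. SLC46A1, the proton-coupled folate transporter, went from 69.9% to 62.2% over 97 CpGs (adjusted p = 0.000445 by the Cochran-Mantel-Haenszel chi-square test), with 63 CpGs lower and 25 higher. The acid-sensing channel gene ASIC5 went from 63.2% to 57.3% (adjusted p = 0.000837 by the same chi-square test). LMO3 went from 73.2% to 67.5% over 385 CpGs (chi-square adjusted p = 2.88e-12), and the 95% interval of its pooled difference was -7.39 to -4.94 points. The zinc finger gene KRBA1 went from 68.1% to 62.6%. NOTCH2, a Notch receptor, went from 80.7% to 75.7%, and NOTCH2 shares long near-identical copies with NOTCH2NLR on the same chromosome, which fell from 60.5% to 55.5%, so reads of this family may be shared and both are uncertain. Just under the 5-point limit came SMAD5, a mediator of BMP signals, from 90.5% to 85.6%, MGAT5, a branching enzyme of glycans, from 85.5% to 80.8%, and DOCK2, from 80.2% to 75.6% with 2338 of 3581 CpGs lower. The only body called higher was HMGA2, a chromatin protein gene among the targets of the fetal regulator LIN28B, with 65.3% and 67.2% (chi-square adjusted p = 0.00251), and its EED inhibitor level was 63.4%. That call was lost with fragments of 600 bp, which left 0 bodies called higher. These bodies were chosen by the matched test after values were seen.

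On pooled reads the 10 lowest bodies with at least 100 CpGs began with FBXL8 (-9.31 points), FZD8 (-9.22 points), OTX1 (-7.61 points) and AMH (-7.53 points), which were at -8.40, -5.50, -6.95 and -5.97 points when matched. By the stratified chi-square test with fragments these had adjusted p of 0.146, 0.198, 0.0998 and 0.498, so none was called. Others had little difference left when matched: the histone gene H3-3A went from -6.64 to -0.961 points and TERF2IP, a telomere protein gene, from -6.49 to -0.857 points. Of the 10 highest, SIX5 went from 8.65 to 1.05 points and PCBD2 from 7.78 to 0.830 points, while LRFN4 was at 6.91 points (6.40 pooled, and an adjusted p of 0.343 by the same chi-square test). For H3-3A, TERF2IP, SIX5 and PCBD2 most of the pooled difference was gone once each CpG had the same weight in both libraries.

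Bodies of genes tied to erythroid maturation varied around a small median difference. Of 35 bodies of red cell surface, membrane and haem genes, 23 were lower and 12 higher, with a median of -0.148 points and 0 called. Over all bodies 88.0% were lower, 11.7% were called lower and the median was -0.946 points. The body of SLC4A1 stood at 76.8% and 76.6%, that of ankyrin ANK1 at 84% and 83.9%, and that of the spectrin SPTB at 83.0% in both. The list ran from EPOR, the erythropoietin receptor, at 65.9% and 63.3%, to UROD, a haem synthesis enzyme, at 65.3% and 70.1% over 32 CpGs. These differed by -5.99 and 7.03 points on pooled reads and by -2.54 and 4.76 points matched, and neither was called. Of 19 erythroid transcription factors 14 were lower and 5 higher, with a median of -0.338 points. Those called were SOX6, a silencer of fetal globin genes, from 66.2% to 64.8%, RUNX1 from 83.8% to 82.3%, and ERG, an endothelial and stem cell factor, from 73.1% to 71.1%. In that order they differed by -1.35, -1.43 and -1.93 points. Among the 3413 longest bodies of any kind 43.6% were called lower, with a median of -1.02 points. Calls were not compared with bodies of like length. BCL11A, the main silencer of gamma-globin, stood at 80.8% and 80.7%, and KLF1, the erythroid master factor, at 0.480% and 0.680% with no call.

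The counts of the other lists stand beside the same shares over all bodies, 88.0% lower and 11.7% called lower. The share called was 43.6% among the 3413 longest bodies and 0% among the 3414 shortest. Both calls and missing calls in these lists thus depend on length. Of 14 progenitor and stem cell genes 11 bodies were lower and 3 higher (median -0.739 points), and HLF (74.2% to 71.6%), MECOM (50.2% to 49.1%) and BCL2 (59.8% to 58.6%) were called. Of 14 genes of DNA methylation and Polycomb 12 were lower and 2 higher (median -0.546 points). In that list the de novo methyltransferases DNMT3A (84% to 82.2%) and DNMT3B (76.0% to 72.6%) and the demethylase TET2 (92.2% to 90.9%) were called, while DNMT1 (93.1% and 92.5%) and EED (84.4% in both) were not. The EED inhibitor library stood at 83.2% over DNMT3A, 76.3% over DNMT3B and 90.4% over TET2, so it was near the non-differentiated level for DNMT3B, between for DNMT3A and below both for TET2. Of 10 fetal regulators 7 were lower and 3 higher (median -0.369 points), with IGF2BP3 and MBD2 called lower and HMGA2 higher. Of 12 glucocorticoid-responsive genes 10 were lower and 2 higher (median -0.408 points) with 0 called, and FKBP5, a chaperone induced by glucocorticoids, stood at 83.3% and 82.4%. Of 13 markers of other blood lineages 10 were lower and 3 higher (median -0.917 points) with 0 called. Of 13 imprinted genes 11 were lower and 2 higher (median -1.65 points), with MEST (92.3% to 88.3%), PLAGL1 (70.4% to 68.2%) and GRB10 (90.9% to 89.6%) called.

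**Figure D3:**
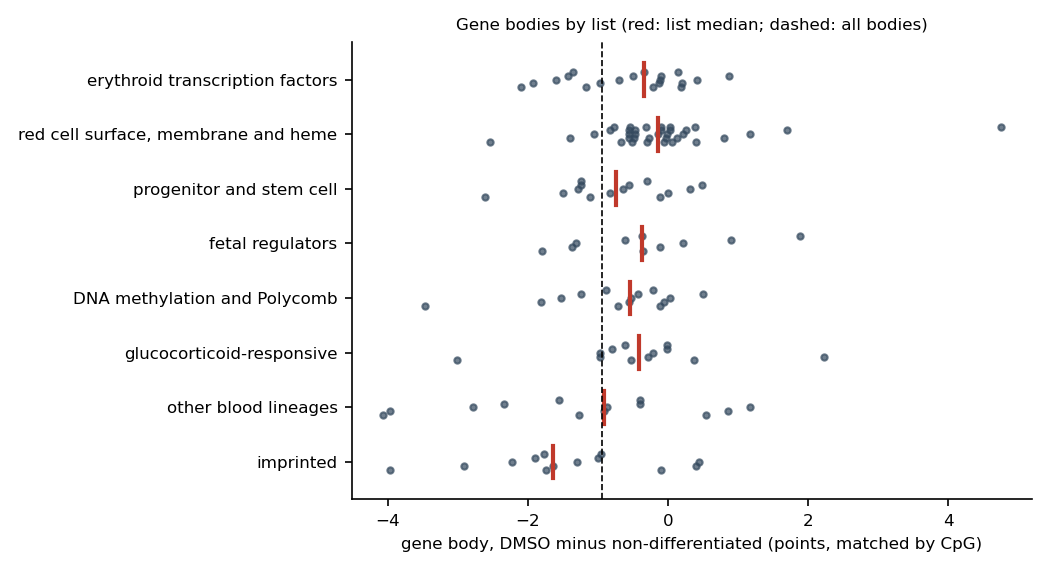
Matched difference of gene bodies in points (horizontal) for the genes of 8 lists (vertical); each dot is a gene with at least 20 shared CpGs, the red bar the list median and the dashed line the median of all bodies at -0.946 points. The median of red cell genes is -0.148 points and that of imprinted genes -1.65 points; the lists overlap, and the red cell gene UROD at 4.76 points lies farthest from 0.

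The globin promoters spanned low to high levels in both libraries. The promoter of HBB, the adult beta-globin, stood at 15% and 15.4%, that of HBD at 31.1% and 31.3%, and that of the embryonic HBE1 at 84.1% and 83.8%. The fetal HBG1 promoter stood at 96.7% and 95.5% over 6 CpGs, and that of HBG2 at 86.1% and 80.4% over 8 CpGs, with 81.4% in the EED inhibitor library. In the alpha cluster HBA1 stood at 1.28% and 1.51%, the embryonic HBZ at 60.3% and 59.4%, HBM at 0% and 1.59% and HBQ1 at 40.9% and 41.4%, and HBA2 had no shared CpG. The control region 5 to 25 kb upstream of HBE1 was at 73.0% (95% Wilson interval 71.6 to 74.4) and 72.8% (71.5 to 74.1) on pooled reads. The segment 9 to 10 kb upstream was lower, at 92.7% and 83.8% on pooled reads (95% interval of the difference -14.9 to -2.63 points), with 4 of 6 CpGs lower and 92.9% in the EED inhibitor library. The segment 17 to 18 kb upstream was 10.3 points higher on pooled reads (1.23 to 19.1) and 3.95 points higher matched. These segments are named because, of all 1 kb segments of the region, only their intervals excluded 0. No correction was made for the number of segments. Inside the region 3 further segments of 1 kb, starting 5, 10 and 18 kb upstream, were near 10% in both libraries. On pooled reads they stood at 11.2% and 8.20%, 11.8% and 10.1%, and 9.45% and 10.2%. Wilson intervals cover counting error only, and reads without molecular identifiers need not be separate molecules. Reads shared by CpGs on 1 fragment are counted as separate too, so all these intervals are too narrow.

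The alpha-globin upstream region, 5 to 60 kb before HBZ, was at 81.1% and 79.7% on pooled reads but differed by -0.027 points when matched. Its largest matched difference among 1 kb segments was 57 to 58 kb upstream in intron 9 of NPRL3, at 64.0% and 79.3% on pooled reads. Matched, it differed by 8.66 points, with 11 of 13 CpGs higher and the EED inhibitor library at 64.7%. At the erythroid enhancer of BCL11A in intron 2, the site 55 kb from the start went the other way, at 62.5% and 55.8% matched with 17 of 21 CpGs lower and 64.4% in the EED inhibitor library. On pooled reads that site differed by -2.42 points, with a 95% interval of -8.73 to 3.96 points. The site at 58 kb differed by -8.70 points on pooled reads and by -0.765 points matched. The site at 62 kb stood at 82.1% and 82.2% matched. None of these regions was tested.

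Promoters, from 1000 bp before to 500 bp after the transcript start, stayed near their levels. Of 17848, 58.4% were lower, with a median of -0.261 points, and 57 were lower and 22 higher by at least 10 points. Called promoters, at 25 points and an adjusted p under 0.01 by Fisher's exact test on pooled reads, numbered 0 (0%) in either direction. This count was set by the size limit, since 0 promoters reached 25 points on pooled reads. With every read counted, the smallest adjusted p by Fisher's exact test was 2.2e-67, and 3216 promoters had an unadjusted p under 0.05. The stratified test with fragments called 0. Promoters of red cell genes were lower in 15 and higher in 19 of 36, with a median of 0.103 points. Those of SLC4A1 (86.2% and 75.8%, 8 CpGs) and RHD, the Rhesus D antigen (44.5% and 58.1%, 13 CpGs), lay at the ends of that list. Promoters of glucocorticoid-responsive genes were lower in 2 and higher in 9 of 12, with a median of 0.325 points, while most bodies of that list were lower. Of 13 imprinted promoters 10 were lower and 3 higher, with a median of -0.543 points. The 2 highest went against most of the list: GRB10 stood at 62.1% and 79.6% and KCNQ1OT1, the antisense RNA of the KCNQ1 cluster, was 10.5 points higher at 55%, while PLAGL1 was at 72.3%, a difference of -7.99 points.

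Among all promoters with at least 10 CpGs, PPP1R14B had the lowest matched difference. It stood at 34.6% and 13.3%, with 19 CpGs lower, 1 higher and the rest equal (95% interval of the pooled difference -25.5 to -14.8 points), and at 39.2% in the EED inhibitor library, and the differing CpGs were mostly those printed above. HSF4, a heat shock factor gene, stood at 26.4% and 9.80%, with 34.9% in the EED inhibitor library. SCN7A, a sodium channel gene, stood at 66.0% and 50.4%, PRTFDC1 at 61.9% and 46.5%, and MMD2 at 29.1% and 13.7%. The highest was TMEM263, at 20.5% and 41.6% with 21 of 25 CpGs higher (95% interval of the pooled difference 16.5 to 29.0 points) and 37.3% in the EED inhibitor library. The intervals of PPP1R14B and TMEM263 count every read at each CpG as separate, and neither promoter was called by the stratified test with fragments. Mean coverage in the non-differentiated and DMSO libraries was 16.1 and 17.5 reads per CpG at PPP1R14B, 13.6 and 11 at HSF4 and 19.9 and 13.8 at TMEM263. At HSF4, TMEM263 and RHD no CpG had 20 reads in both libraries.

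On pooled reads the largest promoter differences were partly others. NCKAP1L, an actin regulator of blood cells, was at -22.6 points pooled and -3.99 points matched. STX6 was at -19.4 and 1.29 points, CTPS1 at -18.9 and 0.750 points, and PCGF3, a Polycomb subunit, at -17.7 and -3.27 points. Upward, CITED4 was at 19.5 and 6.19 points, GXYLT1 at 18.4 and 12.0 points, FCHSD1 at 17 and -2.76 points and ORAI3, a calcium channel subunit, at 15.6 and 1.48 points. GRB10 was at 17.9 and 17.5 points and PPP1R14B at -20.2 and -21.2 points, so pooled and matched values were close for both. With only CpGs of at least 20 reads in each library, GRB10 was at 7.34 points and PPP1R14B at -34.8 points, and with CpGs of all 4 libraries GRB10 was at 10.3 points.

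**Figure D4:**
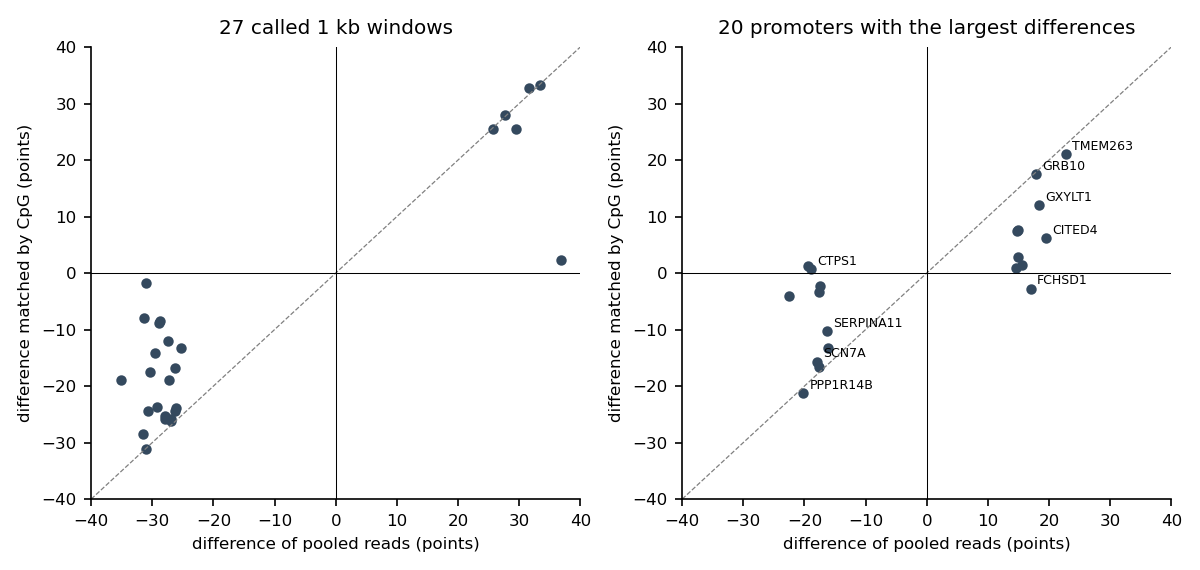
Difference matched by CpG (vertical, points) against the difference of pooled reads (horizontal, points) for the 27 called 1 kb windows and for the 20 promoters of largest pooled difference, with the line of equality dashed. Points on the line keep their difference, such as PPP1R14B and TMEM263; points near 0 on the vertical axis, such as CTPS1 and FCHSD1, lose it.

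At 1 kb, Fisher's exact test on pooled reads was run on the 2361840 windows that held 3 or more shared CpGs. At an adjusted p under 0.01 and 25 points, 21 were lower (0.000889%) and 6 higher (0.000254%), and with the CpGs of a fragment taken as 1 observation 0 passed. Of the 21, 10 kept at least 20 points when matched and 4 fell under 10; of the 6, 5 kept 20 points and 1 fell under 10. The stratified test without the fragment correction gave 238 lower (0.0101%) and 44 higher (0.00186%) at 10 points, and with that correction it gave 0 in either direction. A 1 kb window held on average 274 reads per library and 9.67 CpGs. Either division leaves few reads for an adjustment over all windows, so these counts of 0 say little about differences. At 5 kb the exact test on reads divided by CpGs called 0 of 528327 windows (0%), with 2 at an unadjusted p under 0.05. Too few reads are left by that division for a call to be likely, so this count says nothing about differences. The stratified test with fragments gave 6 lower and 1 higher windows of 5 kb.

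The window upstream of TOX3 went from 77.6% to 49.1%, with all 6 CpGs lower, while its flanks stood at 52.2% and 51.3%. A window upstream of GYPE, a glycophorin gene, went from 94.3% to 69.8%, with 4 of 4 CpGs lower and 75.8% in the EED inhibitor library. A window in intron 5 of MYEF2, a repressor first studied in myelin and found in blood cells, went from 74.9% to 48.7%. Upward, a window in intron 11 of KCNQ1, over KCNQ1OT1, went from 58% to 80%. On chromosome 21 a window at chr21:8208001-8209000 was higher and another at chr21:8390001-8391000 lower, both in a stretch known, as background, for repeated ribosomal RNA genes. No repeat annotation was used here, and both windows are given as uncertain. Windows in intron 1 of TDG, the thymine glycosylase gene, and near CA7 were called on pooled reads at -31.1 and -31.4 points but differed by -1.75 and -7.96 points when matched.

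**Figure D5:**
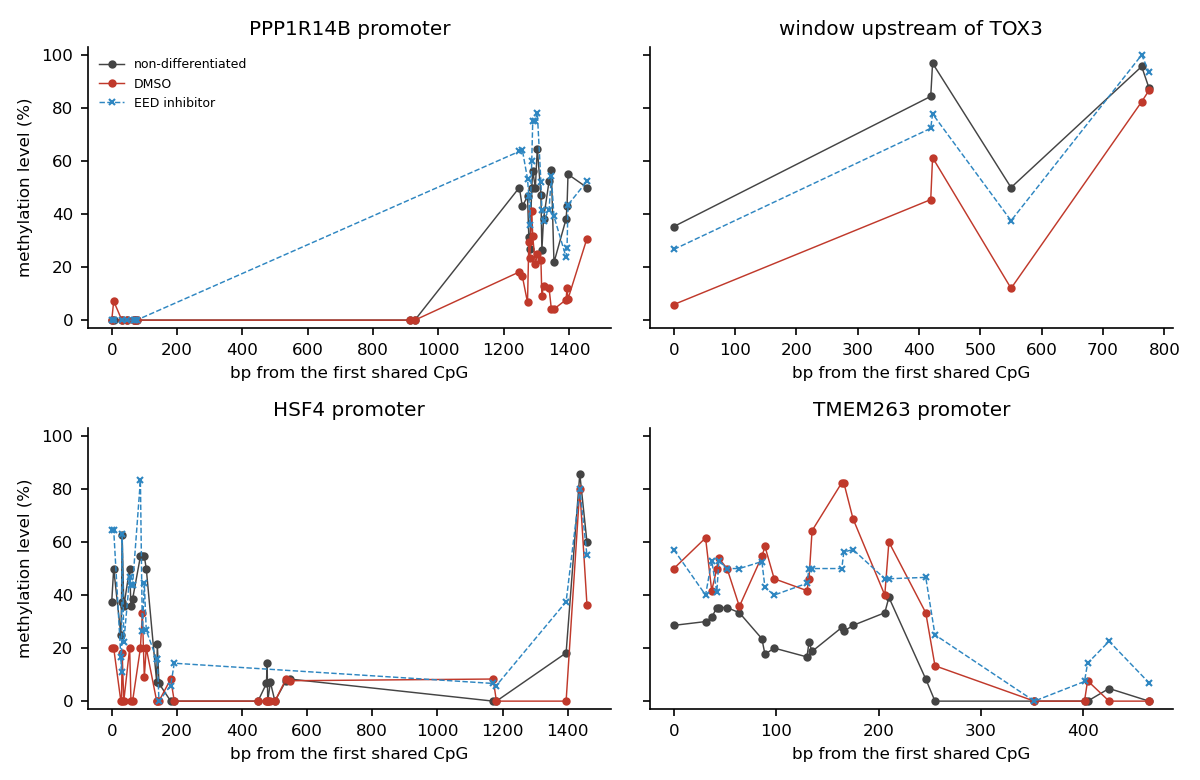
Methylation level of each shared CpG (vertical, %) by distance in bp from the first one (horizontal) at the PPP1R14B promoter, the window upstream of TOX3, the HSF4 promoter and the TMEM263 promoter, for the non-differentiated, DMSO and EED inhibitor libraries; lines join neighbouring CpGs. Differences cover neighbouring CpGs, and over the differing CpGs of PPP1R14B the EED inhibitor library lies nearer the non-differentiated one.

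None of the windows of the stratified test passed with the fragment correction, so their makeup describes regions of these libraries only. The 238 lower windows held a median of 14 CpGs and 45.8% GC, against 8 CpGs and 40.6% GC over all windows, and 25.2% of them touched a CpG island against 2.75% of all. Their median reads were 376.5 non-differentiated and 388.5 DMSO, against 214 and 224 over all. Without the fragment correction, windows with more CpGs and reads pass more easily, so this makeup is partly set by the choice. Over all CpGs, islands differed by -0.710 points and CpGs more than 2 kb from an island by -1.015 points. Motifs of erythroid factors were searched on both strands. The GATA motifs AGATAA or TGATAA were present in 55.9% of the lower and 54.5% of the 44 higher windows, against 71.2% of all. The KLF motif CCACACCC was present in 9.24%, 13.6% and 8.39%, and the RUNX motif TGTGGT in 45.4%, 40.9% and 52.1%. The motif TGACTCA, bound by AP-1 and NFE2, was in 13.0% of lower, 13.6% of higher and 14.6% of all windows, and the E-box CAGCTG in 34.5%, 25.0% and 30.1%. The glucocorticoid receptor motif was in 2.52% of lower and 0% of higher windows against 1.27% of all. The windows differ from all windows in GC content as given above, whose part in these shares was not tested.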

How the data were processed

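Whole-genome bisulfite libraries were made from genomic DNA spiked with 0.5% lambda DNA, per the labels' protocols. The submitters' processing notes name Trim Galore 0.6.7, cutadapt 4.1, Bismark, Bowtie2 2.1.0, methylKit and hg38, with no further settings used here. The deposited tables give, per CpG with both strands merged, a read count as coverage, with the percent of C and of T among those reads, per the file headers. CpGs under 10 reads were absent from the deposited tables. Removal of duplicates is not given in the sources used here. Duplicates, untrimmed ends and incomplete conversion can each move levels.

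Methylated reads were recovered as coverage times percent, rounded. A pooled level is methylated over all reads, pooled over CpGs. Matched levels and differences of the compared libraries are Mantel-Haenszel estimates over CpGs. Levels of the inhibitor libraries are pooled. Windows of 1 and 5 kb and promoters (GENCODE 44) were compared with Fisher's exact test. For 100 kb bins and protein-coding bodies no test was planned, and those past 5 points were counted. A Cochran-Mantel-Haenszel test over CpGs, chosen after seeing the data, was run on all of these. Its statistic was divided by the CpGs per 300 bp. The 5 kb test used reads divided by the number of CpGs in the window, which leaves too few reads for a call to be likely. Adjusted p are Benjamini-Hochberg over all units tested. Intervals are 95% Wilson, and Newcombe for differences. Both count every read at each CpG as separate, although CpGs on 1 fragment share reads, and are therefore too narrow. Groups came from the labels, and the code was tested on simulated data. Python 3.11, NumPy 2.4.6, SciPy 1.17.1 and numba 0.67.0 were used.

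The members, lists and tests were chosen with earlier results of these data known. Named genes were to be, on pooled reads, the 4 lowest and 4 highest of each list with all globins, those at the 10 largest called windows, the 10 promoters with at least 10 CpGs, the 5 bins and the 10 bodies with at least 100 CpGs that differed most in each direction. Those named from matched values were chosen after values were seen. Alternatives were other thresholds, window sizes, coverage limits of 20 and 100 reads, CpGs in all 4 libraries, the unweighted mean, another split of bins, fragments of 600 bp and leaving out chromosome 18. Chromosomes X and Y were left out, and some named genes and a sequence are not reported here.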

Additional observations from a re-analysis of the deposited data

How the results depend on the processing

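No paired analysis was possible because each group has 1 library and the labels give no replicate numbers, and leaving out a replicate was not possible either. No promoter passed the fragment correction; the part of depth in this was not tested. The differences of the genome, of both kinds of bins and of both sequence contexts were negative under all alternatives run. The cause of the moves below was not tested. The genome-wide pooled difference of -1.42 points was -0.971 as an unweighted mean over CpGs, -1.41 without chromosome 18, -1.43 for CpGs in all 4 libraries, -1.40 at 20 reads or more and -0.989 matched by CpG. Partially methylated bins, at -0.941 pooled, gave -0.925 when split by the non-differentiated library, -0.951 by the EED inhibitor library, -0.802 at a split of 50%, -1.11 at 70% and -0.838 matched. Highly methylated bins, at -1.37 pooled, gave -1.38, -1.40 and -1.35 when split by the non-differentiated library, at 50% and at 70%, and -1.15 matched. Lone CpGs between A or T bases, at -0.936 pooled, gave -1.50 in highly and -0.187 in partially methylated bins and -0.670 matched. Clustered CpGs between C or G bases, at -1.02 pooled, gave -1.09 at 20 reads or more, -0.983 in highly and -0.984 in partially methylated bins and -0.810 matched.

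Bins lower by 5 points numbered 19 on pooled reads, 0 for bins of 1 Mb, 3244 at 2 points and 12 matched; higher bins numbered 0, and 1 for 1 Mb, 12 at 2 points and 1 at 20 reads or more. The 1670 matched bins lower by 2 points became 696 with fragments of 600 bp, and 1 was higher at 20 reads or more. The 21 lower windows of 1 kb became 72 at an adjusted p under 0.05 by the exact test, 378 at 10 points, 6 at 20 reads or more, 9 matched and 0 with reads divided by CpGs or fragments. The 6 higher became 27, 102 and 2 under the first 3 of these and 0 under the last. Windows of 5 kb, with 0 called, gave 297 lower and 41 higher when every read was counted, 61 and 8 matched, and 6 and 1 matched with fragments. Promoters, with 0 called, gave 97 lower and 53 higher at 10 points and 1 lower at 20 reads or more. Bodies lower by 5 points numbered 166 on pooled reads, 3300 at 2 points, 47 with at least 100 CpGs and 45 matched; the 48 higher became 391, 8 and 15, and 18 at 20 reads or more. The 1991 bodies called lower became 740 with fragments of 600 bp and 674 at 2 points or more, and the 1 called higher became 0 under both.

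The beta-globin control region, at -0.146 points pooled, reversed to 0.0119 unweighted and 1.02 at 20 reads or more. The alpha-globin upstream region, at -1.37 pooled, was at -0.0197 unweighted and -0.0270 matched, and the alpha-globin cluster, at 1.2 pooled, reversed to -0.0938 and -0.153. The BCL11A site at 58 kb was at -0.527 unweighted and -0.765 matched, against -8.70 pooled. The site at 62 kb, at -0.722 pooled, reversed to 0.403 unweighted, 1.07 at 20 reads or more and 0.0820 matched. Of single promoters, PPP1R14B was at -34.8 points at 20 reads or more, and GRB10 at 10.3 with CpGs of all 4 libraries and 7.34 at 20 reads or more. HSF4, TMEM263 and RHD gave no value there, since no CpG was left.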
